A study of Mus musculus with 6 samples.

Results

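Somatostatin, gastrin and amylin are peptide messengers of the gut and the pancreatic islet, and 8 genes that make or sense them were followed in the mouse duodenum: Sst (somatostatin), Gast (gastrin), Iapp (amylin), the transcription factor gene Hhex and the receptor genes Sstr1, Sstr2, Sstr3 and Sstr5. They were taken by gene name and each matched 1 of 23699 gene models. RNA had been sequenced from the 2 cm of duodenum nearest the stomach in 3 control and 3 mutant samples from mice of mixed background, all 6 weeks old. Controls had the genotype Nkx2.2flox/+, and mutants were Nkx2.2flox/flox with Villin-Cre/+, which deletes floxed alleles in intestinal epithelium. Mutant 3 carried Rosa26Tomato/+ in addition. All 6 libraries thus came from mice with at least 1 floxed allele, and controls had no Cre, so an effect of Cre itself cannot be told apart from that of the deletion.

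Somatostatin is released by D cells, scattered endocrine cells of stomach, duodenum and islet, and by some enteric neurons. It lowers the secretion of neighbouring endocrine and exocrine cells through receptors that couple to inhibitory G proteins. Gastrin comes from G cells of the gastric antrum and, in smaller numbers, of the proximal duodenum, and drives acid secretion. Amylin is a beta cell peptide that is also made by some gut endocrine cells. Hhex maintains the somatostatin-producing delta cell of the mouse islet and is also used in endothelium, liver and B cells.

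The ligand itself is shown first, because Sst was the member whose level differed between the groups. The last 14 codons of Sst, which encode the short form of somatostatin, are set beside the end of the coding sequence of Cort (cortistatin, a related ligand of the same receptors); capitals mark bases that are identical when the stretches are aligned over 13 codons, and 31 of those 39 bases (79.5%) were shared. Both are from GENCODE vM1 transcripts, read on the gene's own strand from Sst on chromosome 16 and Cort on chromosome 4.
Sst: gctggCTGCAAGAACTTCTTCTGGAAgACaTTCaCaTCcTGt
Cort: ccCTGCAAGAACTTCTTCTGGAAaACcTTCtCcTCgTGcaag

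The 250 bases before the start of the 3 ligand genes are given because the deleted gene, Nkx2-2, encodes a homeodomain factor of the NK2 class. Sequences are from RefSeq (GRCm38.p6, not the build of the expression files), 5′ to 3′ on the gene's strand: Sst at chr16:23890845-23891094 (minus strand), Gast at chr11:100334157-100334406 (plus) and Iapp at chr6:142298175-142298424 (plus). Capitals mark the letters AAGTG or CACTT, the NK2 core on either strand, and TGACGTCA, the palindromic cyclic AMP response element. The motifs do not overlap here.
Sst: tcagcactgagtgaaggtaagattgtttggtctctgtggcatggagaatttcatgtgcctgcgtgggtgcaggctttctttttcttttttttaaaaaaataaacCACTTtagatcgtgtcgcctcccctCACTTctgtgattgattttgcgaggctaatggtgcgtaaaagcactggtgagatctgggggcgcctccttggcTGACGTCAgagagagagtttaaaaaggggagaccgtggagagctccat
Gast: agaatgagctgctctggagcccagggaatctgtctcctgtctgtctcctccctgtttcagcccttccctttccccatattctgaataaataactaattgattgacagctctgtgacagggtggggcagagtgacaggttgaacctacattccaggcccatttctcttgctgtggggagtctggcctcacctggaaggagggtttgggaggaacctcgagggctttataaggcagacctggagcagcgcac
Iapp: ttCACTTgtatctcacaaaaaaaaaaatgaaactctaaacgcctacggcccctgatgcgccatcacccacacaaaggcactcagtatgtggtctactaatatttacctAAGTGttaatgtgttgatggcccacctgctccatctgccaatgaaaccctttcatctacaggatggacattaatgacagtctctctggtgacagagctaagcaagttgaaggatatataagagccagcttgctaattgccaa

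The NK2 core letters occurred at 2 places in the Sst window and at 2 in that of Iapp, and not in these letters of the Gast window; 40.7% of 32851 RefSeq promoter windows of the same length hold them. The cyclic AMP response element lay 48 bases before the Sst start and was present in 1.55% of all windows. Among the other members with a window in the table, Sstr2 also held it, 58 bases before its start. These are matches of letters, with no binding data behind them.

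Expression is given as FPKM, fragments per kilobase of transcript and per M (mega) mapped fragments, which corrects for transcript length. The libraries held 21.0 to 26.3 M fragments. Markers of intestinal epithelium were present in all 6 libraries: the summed level of 9 of 10 listed genes, among them Vil1 and Epcam, was 7656 to 13246 FPKM across controls, against 8114 to 14615 across mutants (Muc2 matched no row). Nkx2-2 measured 1.13, 1.32 and 0.779 FPKM in controls 1 to 3, against 1.10, 0.736 and 0.221 in mutants 1 to 3, so the groups overlapped. Neither the floxed exons nor whether each sample is a separate animal is stated in the labels, and whole duodenum holds cells in which Villin is not active. Control 2 stood apart by its gastric transcripts and mutant 3 by the lowest sums of the exocrine pancreas and stomach lists, the latter chiefly from Gkn3. For this reason, values without each are given beside the results they touch. The p-values thus rest on the spread among these 6 samples.

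Sst was by far the most abundant of the 8 genes and was lower in all 3 mutants. It measured 56.5, 84.6 and 70.2 FPKM in controls 1 to 3, against 32.3, 18.1 and 18.5 in mutants 1 to 3. Every mutant lay below every control, and the gap between mutant 1 and control 1 was the narrowest. The group means were 70.5 ± 14.0 and 23.0 ± 8.05 FPKM (SD, n = 3 each), a 3.06-fold lower level. Sst (chromosome 16, 23889667 to 23890930, mm9, minus strand, 2 exons) has 1 transcript model of 599 bases, so the value does not depend on how reads were shared among isoforms.

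The fragments behind Sst were many. They numbered 577, 717 and 585 in the controls and 267, 168 and 151 in the mutants. The exact Poisson 95% interval, which covers counting error only, reached down to 531 fragments in control 1 and up to 301 in mutant 1. Counting error is thus smaller than the distance between the groups.

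The limma test on log2(FPKM + 0.5) gave Sst a difference of -1.63 ± 0.25 (mutant minus control, standard error), with a 95% interval of -2.23 to -1.03. The unadjusted p was 0.000384, 16th smallest of 13596 genes tested, but the Benjamini-Hochberg adjusted p over all genes was 0.326 and did not pass the threshold of 0.05. At that threshold 0.0221% of all tested genes were called, and 0.0147% were called lower. Without mutant 1, the mutant with the highest Sst, the difference was -1.89 and the limma adjusted p 0.0420. Without control 2 it was -1.49 (limma adjusted p = 0.99997), and without mutant 3 it was -1.50 (limma adjusted p = 0.165). Leaving out control 1, control 3 or mutant 2 gave a limma adjusted p of 0.693, 0.542 and 0.9998. The two-sided exact permutation p was 0.1, the smallest that 3 against 3 samples allow.

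In the authors' deposited table Sst passed. That table lists a mean of 608 normalized counts in controls and 204 in mutants, a log2 ratio of -1.58 and an adjusted p of 1.79e-06, the 7th smallest p-value in it. The authors' deposited table calls 26 of 18605 genes at an adjusted p under 0.05 (0.14%), and 17 of them are lower in mutants (0.0914%). The direction and size of the Sst difference are alike in the authors' deposited table and in the limma fit, while the call is made in the authors' table alone. No other member has an adjusted p below 1 in the authors' deposited table.

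**Figure D1:**
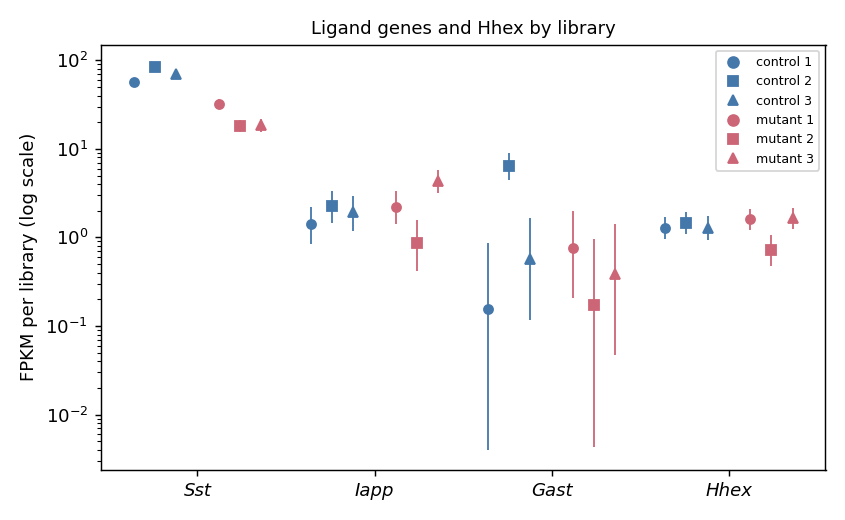
FPKM (log scale) of Sst, Iapp, Gast and Hhex in each of 3 control (blue) and 3 mutant (red) libraries; bars are exact Poisson 95% intervals of the rebuilt fragments, scaled to FPKM. The Sst values of the mutants (18.1 to 32.3) all lie under those of the controls (56.5 to 84.6), whereas the groups overlap for the other 3 genes and Gast is high in control 2 alone (6.37).

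In bulk tissue, fewer D cells and less Sst RNA per D cell cannot be told apart, and Sst is also made outside the epithelium. Levels of pancreatic and enteric neuron markers are given beside it; limma called 0 of 12 tested exocrine, 0 of 5 tested islet and 0 of 9 tested neuron genes. For 6 of the 12 exocrine pancreas markers the groups did not overlap, against 7.75% of all tested genes. All 12 were detected in each library, with a median log2 difference of -1.36. Their summed level was 11578 to 18613 FPKM across controls, against 11393, 7071 and 2617 in mutants 1 to 3. Of the 10 islet markers, Ins2, the insulin gene, measured 8.67, 7.59 and 15.1 FPKM in controls 1 to 3, against 13.5, 1.39 and 2.36 in mutants 1 to 3. Ins2 of mutant 1 lay within the control range, and the exocrine sum of mutant 1 lay just under that of control 3 (11578). Ucn3, urocortin 3, listed here as an islet marker, measured 1.89, 1.81 and 1.29 FPKM in the controls, against 0.259, 0.0993 and 0.113 in the mutants. Its log2 difference was -1.72, without overlap (limma adjusted p = 0.0720). Unlike Ins2, it was low in mutant 1 too, and its cell of origin in this tissue was not tested. G6pc2 lay at 0.0255 to 0.0423 FPKM across controls and was at 0 in all 3 mutants. It was too low to test, and levels this low rest on few fragments. Gcg, the glucagon gene, and Ins1 overlapped between the groups, as did Ppy, which was at 0 in control 2 and in mutants 2 and 3. The islet list summed to 159 to 213 FPKM across controls, against 128 to 226 across mutants, mostly from Slc2a2, which enterocytes also express. Nkx6-1 and Slc30a8 were at 0 in all 3 mutants and in controls 1 and 3.

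Enteric neuron markers, 12 genes with none at 0 in any library, summed to at least 42.9 FPKM in each control and to at most 33.0 FPKM in each mutant. Of the 9 tested, with a median log2 difference of -0.29, 5 did not overlap, against 7.75% of all tested genes. Vip (vasoactive intestinal peptide) and Npy (neuropeptide Y) had the highest mean levels in that list. Vip measured 17.4, 22.3 and 25.4 FPKM in the controls, against 11.7, 10.9 and 12.2 in the mutants, without overlap. Without Vip and Npy, a split made after the values were seen, the other 10 neuron markers summed to 16.2, 19.5 and 17.9 FPKM in the controls and 17.2, 15.2 and 13.2 FPKM in the mutants, so that these sums overlapped. Chat, the acetylcholine-synthesizing enzyme gene, lay at 0.0359 to 0.106 FPKM across controls, against 0.0551 to 0.727 across mutants. The Vip difference was -0.86 on the log2 scale (limma adjusted p = 0.368). The part of pancreatic and neuronal RNA in the Sst difference was not tested.

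**Figure D2:**
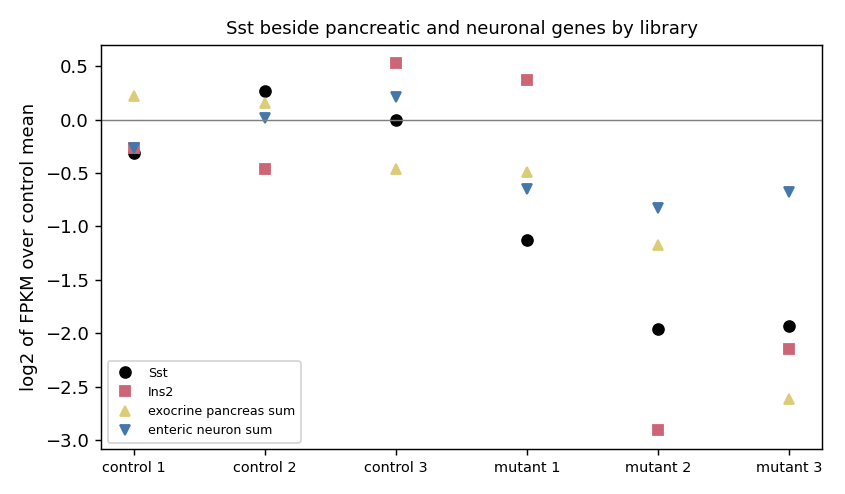
Log2 of the FPKM of Sst, of Ins2 and of the summed exocrine pancreas and enteric neuron markers, each relative to its mean over the 3 controls, by library. All 3 mutants lie below all 3 controls for Sst and for both sums, whereas Ins2 of mutant 1 (13.5 FPKM) lies among the controls (7.59 to 15.1).

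Gast was low in 5 libraries and high in 1. It measured 0.156, 6.37 and 0.572 FPKM in controls 1 to 3, against 0.768, 0.172 and 0.390 in mutants 1 to 3. These values rest on 1, 34 and 3 fragments in controls and 4, 1 and 2 in mutants, so that only control 2 stood above the counting error of the rest. The log2 difference was -0.89 ± 0.93, with a 95% interval of -3.23 to 1.45 (limma adjusted p = 0.999), and without control 2 it was 0.12. Gast passed the filter on low values with 3 libraries of at least 0.5 FPKM, 1 of them mutant 1. The gene lies on chromosome 11 (100195726 to 100198310, mm9, plus strand, 3 exons) and has 1 model of 455 bases.

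Control 2 was also the library rich in gastric transcripts. Gkn1 and Gkn2, gastrokines of gastric surface cells, lay at 111 and 207 FPKM in control 2 and at 0.142 to 0.792 and 0.0823 to 1.28 FPKM in the other libraries. Tff1, a gastric trefoil peptide, lay at 136 FPKM in control 2 and at 0.357 to 2.64 FPKM elsewhere. Muc5ac, the gastric surface mucin, lay at 2.86 FPKM in control 2 and at most at 0.0230 FPKM elsewhere. All 12 stomach markers summed to 593, 2146 and 683 FPKM in controls 1 to 3 and to 1112, 235 and 37.0 FPKM in mutants 1 to 3. Most of this was Gkn3, at 569, 1624 and 673 FPKM in the controls and 1101, 227 and 34.9 in the mutants. Of 6 listed markers of duodenal Brunner glands, Tff2, Muc6 and Aqp5 ranked the libraries as Gkn3 did. Wfdc2 and Dmbt1 did not, and Bpifb1 was at 0. The part of these glands in the stomach sum was not tested. Lipf was at 0 in all 6 libraries, and Atp4a and Atp4b of parietal cells stayed at or under 0.261 and 0.0421 FPKM. The part of gastric tissue in the Gast level was not tested.

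**Figure D3:**
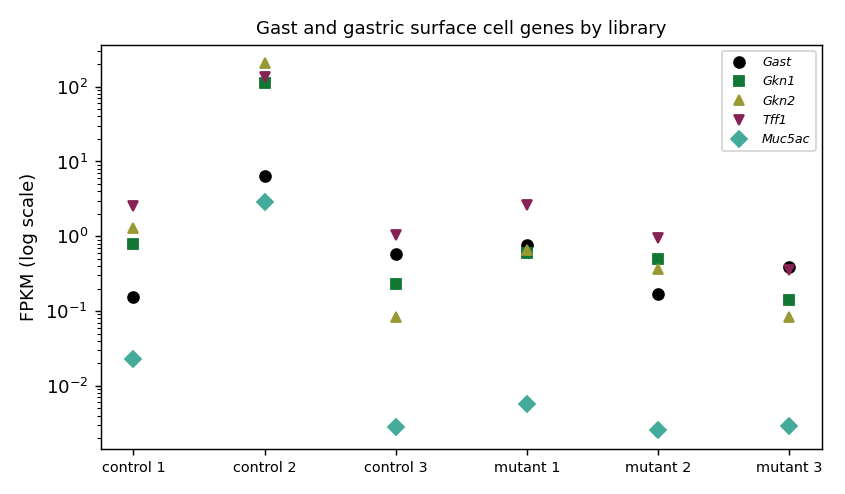
FPKM (log scale) of Gast and of 4 gastric surface cell genes in each library. All 5 genes have their highest value in control 2, where Gast lies at 6.37 and Gkn2 at 207 FPKM.

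Iapp was detected in every library at a similar mean level in both groups. It measured 1.41, 2.27 and 1.92 FPKM in controls 1 to 3, against 2.23, 0.866 and 4.33 in mutants 1 to 3. The controls lay between the mutants, of which mutant 2 was the lowest and mutant 3 the highest of all 6. Mutant 2 had 10 fragments (interval 4.80 to 18.4) and mutant 3 had 44 (32.0 to 59.1), a spread among mutants beyond counting error. The log2 difference was 0.16 ± 0.45 (95% interval -0.92 to 1.24, limma adjusted p = 0.999), and -0.28 without mutant 3. The order of the libraries differed between Iapp and Ins2: mutant 3 had the most Iapp and an Ins2 level of 2.36 FPKM, below all controls. The ratio of Sst to Iapp was 36.5 to 40.0 in the controls and 14.5, 20.9 and 4.28 in mutants 1 to 3. Iapp lies on chromosome 6 (142246945 to 142252339, mm9, plus strand) with 1 model of 695 bases.

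Hhex showed no detectable difference. It measured 1.29, 1.47 and 1.28 FPKM in controls 1 to 3, against 1.63, 0.726 and 1.65 in mutants 1 to 3, so mutant 2 was the lowest and mutants 1 and 3 the highest. The gene (chromosome 19, 37509331 to 37515221, mm9, plus strand, 1771 bases) rested on 43 to 53 fragments in controls and on 54, 27 and 54 in mutants. The log2 difference was -0.056 ± 0.24, and its 95% interval of -0.61 to 0.49 corresponds to ratios of 0.657 to 1.41 (limma adjusted p = 0.999). Hhex is not confined to D cells, and markers of other cells that use it were present. The 10 endothelial genes summed to 54.6 to 79.7 FPKM across controls, against 54.5 to 80.7 across mutants. Mutant 2 (54.5) and control 1 (54.6) had the lowest sums and were nearly equal. The B cell list summed to 11.6 to 23.2 and 12.5 to 22.1 FPKM, respectively. The 7 liver genes summed to 216 to 263 FPKM across controls, against 180 to 200 across mutants, without overlap, mostly from Hnf4a, which enterocytes also express. Alb reached at most 0.249 FPKM, and Fgb was at 0 in all 6 libraries. Afp, alpha-fetoprotein, measured 25.6, 25.1 and 10.6 FPKM in the controls, against 1.90, 0.537 and 0.967 in the mutants (log2 difference -3.66, limma adjusted p = 0.220). Apoh went the other way, at 0.329 to 0.669 FPKM across controls, against 0.783 to 1.76 across mutants, without overlap. Its log2 difference was 0.67 (limma adjusted p = 0.999). Serpina1a had a higher mean in mutants, with overlap, so the liver list had no single direction. Limma called 0 of 10 tested endothelial, 0 of 2 B cell and 0 of 4 liver genes. The part of these cells in the Hhex level was not tested.

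The receptors were expressed at low levels, and none differed detectably between the groups. Sstr1, the most abundant, measured 0.698, 0.690 and 0.777 FPKM in controls 1 to 3, against 0.835, 0.734 and 0.443 in mutants 1 to 3. Mutant 1 was the highest and mutant 2 lay within the control range. Mutant 3 was the lowest, with 34 fragments against 55 to 67 in the others. The log2 difference was -0.076 ± 0.17 (95% interval -0.48 to 0.33, limma adjusted p = 0.999), and 0.072 without mutant 3. Sstr1 lies on chromosome 12 (59312791 to 59317023, mm9, plus strand).

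Sstr2, the receptor through which somatostatin restrains gastrin and acid secretion in the mouse stomach, measured 0.419, 0.567 and 0.373 FPKM in the controls, against 0.477, 0.561 and 0.306 in the mutants. Sstr5, which binds the long form of somatostatin with high affinity, measured 0.322, 0.330 and 0.277 FPKM in the controls, against 0.437, 0.390 and 0.145 in the mutants. Sstr3, a receptor of primary cilia, measured 0.225, 0.160 and 0.0502 FPKM in the controls, against 0.152, 0.135 and 0.0513 in the mutants. The groups overlapped for each of these 3 genes, and mutant 3 was the lowest mutant for all of them. All 3 fell short of the filter. In mm9 they lie on chromosome 11 (Sstr2, 113485571 to 113486950, plus strand), 17 (Sstr5, 25626820 to 25634233, minus strand) and 15 (Sstr3, 78367445 to 78374775, minus strand). Exact two-sided permutation tests gave p = 0.9 for Sstr2, p = 0.6 for Sstr3 and p = 1 for Sstr5. In a limma fit without the filter, the 95% intervals of the log2 difference were -0.35 to 0.33 for Sstr2, -0.35 to 0.21 for Sstr3 and -0.35 to 0.37 for Sstr5, on a scale that understates changes of genes this low.

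The order by FPKM was Sstr1, Sstr2, Sstr5 and Sstr3 in each of the 6 libraries. In controls Sstr1 was clear of Sstr2 (lowest Sstr1 0.690, highest Sstr2 0.567 FPKM) and Sstr2 of Sstr5 (lowest Sstr2 0.373, highest Sstr5 0.330 FPKM), and Sstr5 of Sstr3 (lowest Sstr5 0.277, highest Sstr3 0.225 FPKM), whereas the mutants' ranges of neighbours in that order overlapped. Sstr4, which is not among the 8, lay at 0.0779 to 0.194 FPKM across controls, against 0.107 to 0.324 across mutants, on 2 to 8 fragments. The 5 receptor genes had a summed level of 1.77 ± 0.120 FPKM in the controls and of 1.74 ± 0.409 FPKM in the mutants (SD, n = 3 each). Sst exceeded that sum 30.4- to 46.4-fold in controls and 9.41- to 16.0-fold in mutants.

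**Figure D4:**
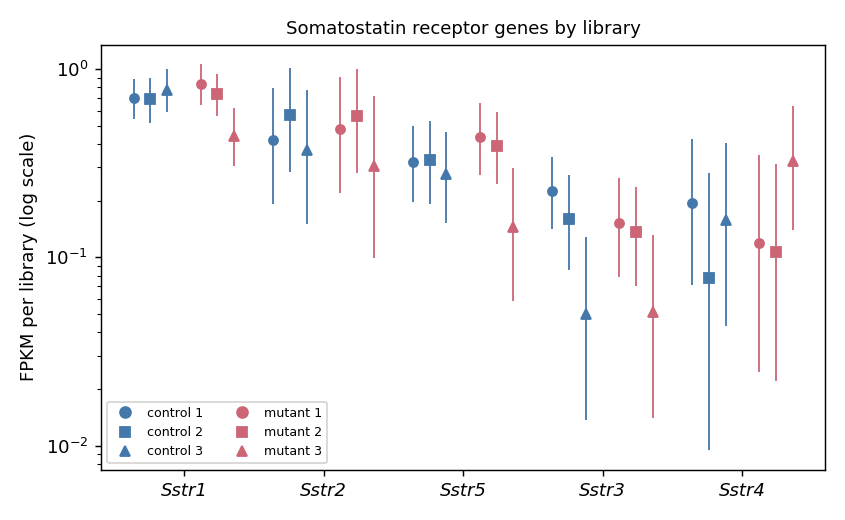
FPKM (log scale) of the 5 somatostatin receptor genes in each library, with exact Poisson 95% intervals of the rebuilt fragments scaled to FPKM. Groups overlap for every receptor, and mutant 3 has the lowest Sstr1 (0.443), Sstr2 (0.306) and Sstr5 (0.145).

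Transcript models bear on these receptor levels. The files hold 2 Sstr2 models of 1110 and 1041 bases, both multiples of 3, and the shorter is the coding sequence with its stop codon, whereas GENCODE vM1 also lists transcripts of 1537 and 2089 bases at the locus (chromosome 11, 113480656 to 113487319). Fragments from the rest of those transcripts lie outside the Sstr2 models. All or nearly all of the Sstr2 value went to the 1110-base model in control 2 (0.567 FPKM), control 3 (0.369) and mutant 1 (0.477), and to the 1041-base model in control 1 (0.419), mutant 2 (0.561) and mutant 3 (0.306). Each group thus holds both assignments, at about 5 to 11 fragments per library. Of the 2 Sstr5 models, that of 2581 bases held nearly all of the value in all 6 libraries.

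**Figure D5:**
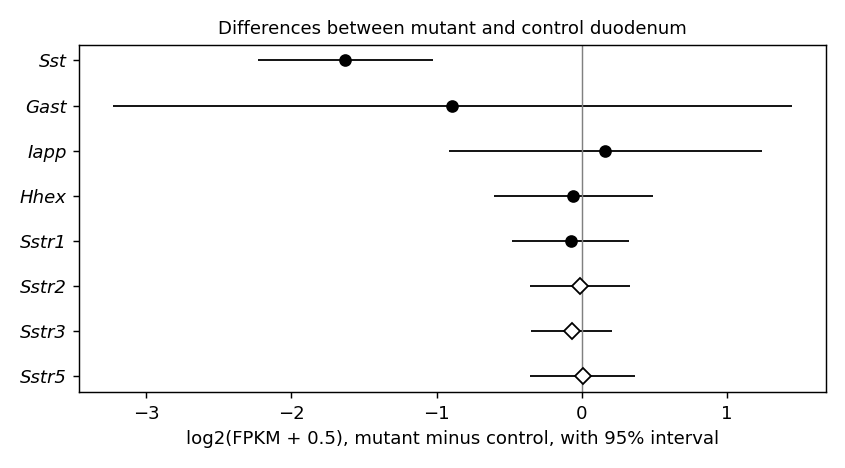
Difference in log2(FPKM + 0.5), mutant minus control, with its 95% interval from limma for the 8 genes; filled circles come from the fit with the filter on low values, open diamonds from the fit without it. The interval of Sst (-2.23 to -1.03) lies below 0, and those of the other 7 genes include 0.

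Across the 8 genes, 5 passed the filter of at least 0.5 FPKM in at least 3 libraries and 0 were called by limma after adjustment, while 1 (Sst) passed an unadjusted p under 0.05, as did 3.43% of all tested genes. Mutant and control values did not overlap for 1 of the 5 (Sst), against 7.75% of all tested genes in either direction and 3.71% in the lower direction. The median log2 difference of the 5 was -0.076, and that of all tested genes was -0.021. With limma-voom on rebuilt reads 0 members were called, and the limma adjusted p of Sst was 0.307.

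Receptors for the other ligands were scarce. Calcr, the core of the amylin receptor, had 0 reads in all 6 libraries, which allows up to 0.0316 to 0.0395 FPKM per library (3 reads). Cckbr, the gastrin receptor, had 0 to 2 reads per library. Both were named after their values were seen. Ramp2 and Ramp1, subunits that lend ligand specificity to calcitonin-type receptors, had the highest means among the related receptors, Ramp2 at 9.15 to 13.1 FPKM across controls, against 9.64 to 16.2 across mutants. Ramp1 lay at 2.71 to 4.01 and 3.22 to 4.37 FPKM. Limma called 0 of 5 tested genes in that list, against 0.0221% of all tested genes, with a median log2 difference of 0.087. The groups did not overlap for 1 of these 5, Cckar (lower), against 7.75% of all tested genes.

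Related ligands also gave no call, with 0 of 3 tested genes past the threshold (median 0.23). Cck, cholecystokinin, which shares its active end with gastrin, measured 81.4, 70.6 and 75.6 FPKM in controls 1 to 3, against 41.7, 62.1 and 45.4 in mutants 1 to 3, without overlap (log2 difference -0.62, limma adjusted p = 0.999). Adm, adrenomedullin, lay at 1.46 to 3.27 FPKM across controls, against 2.16 to 2.98 across mutants. Cort was near its limit of detection, with 0 to 3 reads per library.

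Enzymes that turn the precursors into active peptides were present in both groups. Cpe, which trims basic residues, measured 33.8, 38.5 and 43.5 FPKM in the controls, against 74.5, 62.8 and 44.7 in the mutants, without overlap (log2 difference 0.62, limma adjusted p = 0.999). Furin, a convertase of the constitutive pathway, lay at 30.3 to 36.9 and 30.3 to 33.1 FPKM. Limma called 0 of 9 tested processing genes (median -0.055), against 0.0221% of all tested genes. The groups did not overlap for 2 of these 9, Cpe (higher) and Pcsk1n (lower), against 7.75% of all tested genes. Of 12 tested genes that couple or quench the receptors, limma called 0 as well (median -0.040). Among them, the G protein subunit gene Gnb1 lay at 218 to 245 FPKM across controls, against 243 to 267 across mutants. Gnai2, another such gene, measured 148 ± 24.2 and 149 ± 16.4 FPKM (SD, n = 3 each).

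Regulators known from D, G or delta cells were compared as well, and limma called 0 of 12 tested genes (median -0.098). Pdx1, a homeodomain factor of duodenum and islet that binds the Sst promoter in islet cells, measured 88.4, 93.7 and 87.2 FPKM in the controls, against 76.7, 84.7 and 83.2 in the mutants, without overlap (log2 difference -0.14, limma adjusted p = 0.999). Among receptors known on D cells, 2 of 9 with a model were high enough to test, and 0 passed. Glp1r, the GLP-1 receptor, measured 2.91, 5.89 and 2.61 FPKM in the controls, against 4.14, 0.893 and 0.526 in the mutants. Lepr, the leptin receptor, lay at 2.51 to 3.57 and 1.58 to 2.87 FPKM. Ghsr, the ghrelin receptor, had 0 reads in all 6 libraries, which allows up to 0.0271 to 0.0339 FPKM, and Ffar4 matched no row.

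The genes most like each member were sought by Pearson's r of log2(FPKM + 0.5) over the 6 libraries among 815 tested genes with an SD of at least 0.5. Most like Sst were Reg3d (r = 0.975), Gsta3 (r = 0.961) and Pyy (r = 0.959). Each of them, like Sst, was lower in every mutant than in every control, so the likeness follows the split into groups. Pyy, the peptide YY gene of L cells, measured 17.5, 18.3 and 10.2 FPKM in the controls, against 4.25, 0.875 and 1.66 in the mutants (log2 difference -2.67, limma adjusted p = 0.751). Most like Gast were Cwc22 (r = 0.977), Gkn1 (r = 0.935) and Tff1 (r = 0.929), a likeness carried by control 2. Ccl12 (r = 0.915), Mfsd4 (r = 0.891) and Ceacam10 (r = 0.888) were closest to Iapp, and Mmp9 (r = 0.826), Hist1h4f (r = 0.818) and Nme4 (r = 0.781) to Hhex. Sbsn (r = 0.960), H2-Q10 (r = 0.937) and Gstm3 (r = 0.936) were closest to Sstr1. These values describe 6 libraries that all genes share.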

How the data were processed

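Libraries were made with a TruSeq kit, per the labels, and read on a HiSeq2000, per the design text. TopHat, Cufflinks, DESeq, CASAVA 1.8.2 and the build mm9 are named in the submitters' processing notes, with no role or option; strand handling is not given in the sources used here. The authors deposited FPKM per gene and isoform and a coverage signal per isoform for each library, per the file headers. The authors' deposited table gives, for each gene, group means on a normalized count signal scale, a ratio (fold change) with its log2 value, and p-values.

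Members, lists and tests were chosen with earlier results of these data known. The limma test (version 3.58.1 in R 4.3.3, trended robust prior, two-sided) took log2(FPKM + 0.5) of 13596 genes that reached 0.5 FPKM in 3 or more libraries. Its p-values were adjusted over all of them by Benjamini-Hochberg, with a threshold of 0.05. It was checked on simulated data. Fragments were rebuilt from coverage and transcript length: among 18489 values up to 20 reads, 90.5% were less than 0.1 from a whole number. In genes with 2 isoforms they need not be whole. Depth was 21.0 to 26.3 M fragments, so genes under 1 FPKM rest on few fragments. Intervals cover counting error only.

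The 8 members are named, and from each list the genes called by limma or else the 2 of highest mean, summed levels of marker lists, and the 3 genes most like each tested member; other names were added after their values were seen, and some results are not reported here. Deviations from the group means of same-numbered samples correlated at 0.265, 0.250 and 0.575, and all exceeded 0.1, which was read as possible pairing by number. However, control 1 with mutant 2 reached 0.296 and control 2 with mutant 1 reached 0.193, so pairing was not clear for numbers 1 and 2. The main fit took no pairs, and the replicate number served as a block only in an alternative setting. What a number stands for is not in the labels. Alternatives were other pseudocounts, filters and scalings, limma without trend, limma-voom on rebuilt reads, the replicate block, and leaving out libraries. Python 3.11.15, pandas 2.3.3, numpy 2.4.6, scipy 1.17.1 and matplotlib 3.10.9 were used.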

Additional observations from a re-analysis of the deposited data

How the results depend on the processing

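Sst was lower in mutants in all 18 alternative settings, at log2 differences from -1.65 to -1.50 outside the fits that leave out 1 library and from -1.89 to -1.49 within them; limma called it only without mutant 1. With the replicate number as a block the 95% interval of Sst widened to -2.83 to -0.42. The unadjusted limma p of Sst was then 0.0242 and the limma adjusted p 0.635, and the block changed no call of a member. The other members kept no fixed sign when 1 library was left out: Gast ranged from -1.57 to 0.12, Iapp from -0.28 to 0.63, Hhex from -0.19 to 0.21, Sstr1 from -0.18 to 0.072, Sstr2 from -0.10 to 0.10, Sstr3 from -0.18 to 0.020 and Sstr5 from -0.10 to 0.17. Without both libraries numbered 3 the values were -0.25 for Iapp, 0.10 for Sstr1 and 0.041 for Sstr2. Sstr5 was -0.029 with a pseudocount of 0.1 and -0.051 with limma-voom. Over all genes limma called 3, and 1 with no filter, upper quartile scaling or TPM scaling, 22 with the replicate block, 186 without both libraries numbered 3, 0 without transcripts under 200 bases (466 at an unadjusted p under 0.05) and 0 with limma-voom (623 unadjusted). Leaving out 1 library gave 0 to 63 calls; the 0 came without control 1 (335 unadjusted) or control 2 (295 unadjusted). Apart from the settings that test fewer genes or samples, the cause was not tested. Settings that rescale FPKM gave no value for members under the filter, except for Sstr2 under TPM scaling (-0.025). Limma-voom, which scales the libraries as well, gave -0.25 for Sstr3 besides its value for Sstr5. Depth limits Gast, Sstr2, Sstr3 and Sstr5 most.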

Other observations

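The genes described here were named after their values were seen, and none was called. Isl1, a LIM homeodomain factor of endocrine cells and neurons, measured 0.576, 1.03 and 0.745 FPKM in controls 1 to 3, against 1.99, 1.70 and 0.989 in mutants 1 to 3, where mutant 3 lay under control 2. Calcb, a calcitonin gene-related peptide gene, measured 0.456, 0.549 and 0.744 FPKM in the controls, against 1.88, 1.90 and 0.825 in the mutants, without overlap (log2 difference 0.87, limma adjusted p = 0.999). Cckar, a cholecystokinin receptor, measured 3.78, 5.21 and 2.93 FPKM in the controls, against 2.52, 1.84 and 0.597 in the mutants, without overlap (log2 difference -1.15, limma adjusted p = 0.999).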
